A study of Homo sapiens with 6 samples.

Results

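The introns described here were those over 2000 nt that the deposited data list as kept in part of the RNA of SKNBE2 cells, which are human neuroblastoma cells whose MYCN gene is amplified. A deposited table gave the percent of reads that keep each intron. Of 192965 introns listed, 86506 were longer than 2000 nt. Members needed a coverage score of LOW or better in each of the 6 libraries, which 36883 of these long introns had. They also needed at least 10 reads in each library, which removed no further intron, and a mean of 5% to 95% over the 3 Control libraries. That left 1133 introns in 1042 genes, while 35717 long introns lay below 5% and 33 above 95%. The Control level thus chose the members and is given below as a description only.

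The samples were 3 libraries labelled Control and 3 from cells held for 4 days at 250 µM DFMO (difluoromethylornithine), a drug that blocks ornithine decarboxylase and with it the first step of polyamine synthesis. All 6 came from the same MYCN-amplified line, grown in RPMI, and what the Control cells received is not stated. Stranded mRNA libraries were read as single reads of 100 nt. The labels do not say whether replicates were separate cultures, and their differences may be technical. The p-values for the percents rest mostly on a counting-error trend shared over introns, and the spread of a single intron among its replicates weighs little in them.

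Most human introns are cut out while the RNA is still being made. An intron that stays can hold the RNA in the nucleus, lead to its decay or change the encoded protein. Reads that run from an exon into an intron do not come from retention alone: a transcript can end at a poly(A) site inside the intron, start there, or use another splice site there. In the deposited percent, reads over the upstream exon-intron border and over the downstream one are averaged and set against reads that join the exons. An intron with reads at 1 border only is thus given a percent too.

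Event reads per library, summed over all entries of the table, ran from 77648922 to 103250467, and 126944 to 169714 of them fell on the 1133 introns. Covered exons were found for 12 of 12 noradrenergic neuroblastoma markers, 3 of 9 mesenchymal ones (TWIST1, VIM and CD44), 1 of 4 Schwann and glial ones (S100B) and 0 of 6 of blood and endothelium. Coordinates are GRCh38, and annotation and sequence are from GENCODE release 29.

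The borders of introns whose percents moved with DFMO are printed first, because the reads at these borders make up the percent. Bases are written 5′ to 3′ on the gene's strand. In the upstream (donor) windows, 6 exon bases are followed by 14 intron bases, and the first 2 intron bases are in capitals. In the downstream (acceptor) windows, 20 intron bases are followed by 3 exon bases, and the last 2 intron bases are in capitals. These are introns with nearly all end reads at the upstream border:
HAND2-AS1 donor, chr4:173536971-173582704, plus strand: gccaagGTacatctcagatc
PCF11 donor, chr11:83157632-83161326, plus strand: gccaagGTttttatacaccc
CSTF3 donor, chr11:33108419-33141666, minus strand: gcagagGTtactattttatt
TMTC4 donor, chr13:100614431-100625534, minus strand: cgtctgGTaagcgcggggtg
CDON donor, chr11:126010695-126015240, minus strand: aaaatgGTaggcttttaggt
KAT8 donor, chr16:31120515-31127034, plus strand: cagaagGTccggatcccttc
THRA donor, chr17:40089334-40093019, plus strand: atgaagGTgactgacctccg
ATRX donor, chrX:77664779-77676225, minus strand: gaatagGTatgattccatct
NUB1 donor, chr7:151360248-151366938, plus strand: tttctgGTaggcgcttttgt
TRERF1 donor, chr6:42259724-42263319, minus strand: gtgctcGTgaggatgaccct
PPP4R3A donor, chr14:91473371-91475849, minus strand: gatgatGTaagtaagaagtt

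Several of these introns hold the annotated end of a shorter transcript of the same gene. The windows below show 30 bases near that end, with a poly(A) signal (AATAAA) in capitals. The search covered the last 50 bases of the transcript strand for AATAAA or ATTAAA, in a single annotated transcript per intron. CSTF3, CDON, KAT8, NUB1 and PPP4R3A also hold an annotated end, but the search gave no signal to print for them.
HAND2-AS1 transcript end inside the intron: gatgatgtcagtAATAAAattacagaatct
PCF11 transcript end inside the intron: ataaaatttgtgAATAAAacatataaaata
TMTC4 transcript end inside the intron: tttcttatttatAATAAAatgacatagtga
THRA transcript end inside the intron: atatatttatgtAATAAAtatatgatgaaa
ATRX transcript end inside the intron: ctatttggatgcAATAAAtttttgtaaacc

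Other introns had end reads at the downstream border only or nearly so, and their acceptors are these:
L1CAM acceptor, chrX:153875945-153886064, minus strand: tcccttctcccctctcccAGtgc
SLC3A2 acceptor, chr11:62871670-62881018, plus strand: tcgtgtcgccggttctgcAGgca
PICALM acceptor, chr11:85990379-85996825, minus strand: tcctttctctgctactgtAGatg
UBTF acceptor, chr17:44218297-44220739, minus strand: aactggtatgtcttccaaAGggt
RPS24 acceptor, chr10:78037305-78040614, plus strand: ttctttctcttgattcacAGccg

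A further set had reads at both borders, mostly upstream in PAXBP1 and SRSF11 and mostly downstream in OGT. Both windows are shown where an annotated exon runs across the border.
PAXBP1 donor, chr21:32751219-32755229, minus strand: attcaaGTcagtccatcttg
PAXBP1 acceptor, same intron: taactgttgttgttttgcAGaca
PAXBP1 acceptor, chr21:32755354-32759079, minus strand: agtgtgttgtatttttacAGgtg
SRSF11 donor, chr1:70228556-70232267, plus strand: cagaagGTttgtgctttgtt
SRSF11 acceptor, same intron: gcaaggatgtttctctgcAGgag
PRPF38B donor, chr1:108696338-108698603, plus strand: gaagagGTatgtcaacaagg
PRPF38B acceptor, same intron: tatcttttgtgtttctgtAGgac
LENG8 donor, chr19:54458522-54460765, plus strand: caaaacGTatgtggtgccaa
LENG8 acceptor, same intron: ttctcctcttgtctccatAGctt
OGT donor, chrX:71544636-71547906, plus strand: gccaagGTaggtgtttgata
OGT acceptor, same intron: tttcattaacccctcctaAGgca
CEP152 donor, chr15:48739289-48741600, minus strand: agtcagGTatgtcaaagtga

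Over all 1133 introns, 584 donors and 366 acceptors had sequence in an annotated transcript. Of these donors, 569 began with GT, 11 with GC and 4 with AT. Of the acceptors, 363 ended in AG and 3 in AC. All 1133 introns matched an annotated intron exactly. In at least 1 transcript each, 965 (85.2%) lay between coding exons. Another 102 (9.0%) lay in the 5′ UTR, 27 (2.38%) in the 3′ UTR and 39 (3.44%) in noncoding transcripts.

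Most of the long introns had reads at 1 border and few or none at the other. Summed over the 6 libraries, 474 (41.8%) had at least 90% of their end reads at the upstream border, called upstream only here. At least 90% lay at the downstream border in 147 (13%), called downstream only. Reads were shared, with 30% to 70% at the upstream border, in 260 (22.9%). Between these classes, 159 (14%) lay mostly upstream and 93 (8.21%) mostly downstream. The median long intron had 47 reads over the upstream border, 13 over the downstream one, 8.8 in its body and 316 that joined the exons. The body reads came from the middle of the intron and did not enter the percent.

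Shorter introns picked by the same limits looked different. Of 1329 introns under 500 nt, 61.2% had reads at both borders and 4.89% upstream only, and their median border reads were 42 and 52. Of 1081 introns of 500 to 2000 nt, 46.5% and 16.0% did. Among the long introns, the upstream-only share was 24.3% at 2000 to 3000 nt, 36.4% at 3000 to 5000 nt, 49.4% at 5000 to 10000 nt and 67.6% beyond 10000 nt. The share with both borders read was 35.4%, 24.8%, 18.8% and 6.19% in the same order. The percent was thus made of reads at 1 border more often the longer the intron was.

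**Figure D1:**
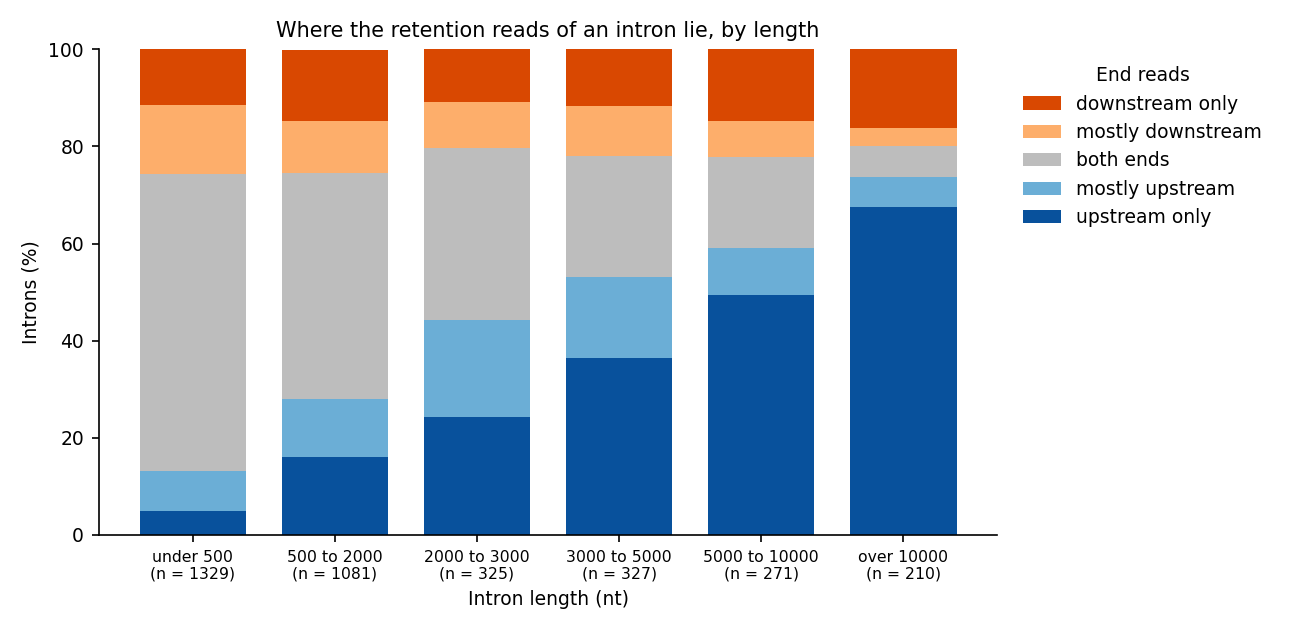
Share of introns (%, y axis) in each class of end reads, by intron length in nt (x axis), for all introns that met the coverage and Control limits. Upstream-only introns make up 4.89% under 500 nt and 67.6% beyond 10000 nt, and introns read at both borders 61.2% and 6.19%.

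The annotation differed between the classes in the same sense. An annotated transcript that crosses the upstream border and ends inside the intron was present for 53.4% of the upstream-only introns, 38.8% of those read at both borders and 12.2% of the downstream-only ones. Where such an end could be read, AATAAA or ATTAAA stood in its last 50 bases for 129 of 235 upstream-only introns (54.9%) and 21 of 97 read at both borders (21.6%). Over all annotated ends of 152453 transcripts the share was 39.2%. An annotated exon that runs from another acceptor inside the intron across the downstream border was present for 44.9% of the downstream-only introns and 1.9% of the upstream-only ones. Exons that start inside the intron and cross its downstream border were annotated for 32.7% of the downstream-only introns and 11.4% of the upstream-only ones. For introns read at both borders the share was 34.6%, and for the mostly downstream ones 37.6%. The whole intron lay inside an annotated exon for 36 of the 1133, against 780 of the 1329 introns under 500 nt. The upstream label itself rests on the order of the read numbers in the table, which no header states. That order was taken from this annotation, so the contrast between upstream and downstream classes in annotated ends and exons is partly fixed by that choice. For 63 of the introns an exon of the opposite strand lay within 50 nt of a border, and whether the counting used the strand is not given in the sources used here.

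Retention in Control cells was low for most. The Control mean had a median of 9.51% and quartiles of 6.49% and 15.9%, and 602 of the 1133 lay between 5% and 10%. Another 320 lay at 10% to 20%, 164 at 20% to 50% and 47 at 50% or more. The highest Control means were those of CMTM4 and JRK (94.1% each) and of the noncoding RNA MEG3 (93.7%). MEG3 is an imprinted noncoding gene, and its 2762-nt intron had 448, 363 and 723 upstream reads in the Control libraries and 312, 321 and 551 downstream. Lengths ran from 2001 to 740920 nt with a median of 4255. The 3 longest belonged to HS6ST3 (740920 nt), a heparan sulfate sulfotransferase gene, PRKCE (190551 nt), a protein kinase C gene, and DLC1 (189611 nt). Their Control means were 9.94%, 5.31% and 7.68%, nearly all from reads at the upstream border, with 2, 0 and 0 downstream reads over the 6 libraries.

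The limits fell within a dense range of values. Just inside the length limit were introns of SUGP1 (2001 nt, 6.24% in Control), FKBP1A (2003 nt, 8.01%) and STX1A (2004 nt, 19.1%), and just outside it those of CNST (1999 nt, 7.34%), POGLUT1 (1996 nt, 5.55%) and COQ4 (1995 nt, 35.8%). At the lower Control limit, NXPE3 (5.0%), FBRSL1 and ERCC5 (5.01% each) were inside, and SLC25A43, WWP2 and DTX2 (4.99% each) outside. At the upper limit, CMTM4, JRK and MEG3 were inside, while AC097382.5 (95.6%), TMEM147-AS1 (96.2%) and CDC42-IT1 (97.3%) were outside.

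With DFMO, 34 long introns rose and 16 fell, in 49 genes. Each intron was tested on the log2 odds of retention with limma, with adjusted p-values over 3684 introns of every length. A call needed an adjusted p below 0.05 and a difference of 10 percentage points or more between the group means. Of the 1133 members, 1026 were tested. The other 107 had a mean over the 6 libraries outside 5% to 95%, and their differences ran from -8.62 to 3.85 points, with 106 of the 107 lower. Over introns of every length, 1.74% were called higher and 2.06% lower, or 3.8% in all. Among all 1255 tested long introns these shares were 3.51% higher and 1.27% lower. Among the 1026 tested members, which also met the limit on the Control mean, they were 3.31% and 1.56%. Under 500 nt, 5 introns were called higher and 44 lower of 1173 that met the same limits, and at 500 to 2000 nt 12 higher and 15 lower of 981. These shares are descriptions, and the difference between length classes was not tested.

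As a whole the 1133 members moved little. The mean percent over the 1133 was 14.88, 14.6 and 15.15 in Control replicates 1 to 3. It was 15.63, 15.57 and 14.89 in DFMO replicates 1 to 3, so the groups overlapped in this mean. Their median percent did not overlap, at 9.9, 9.59 and 10.1 in Control and 11.02, 11.11 and 10.2 in DFMO. Nor did the mean over the tested members, at 15.71, 15.44 and 16.06, then 16.89, 16.83 and 16.08. In both, DFMO replicate 3 lay close to Control. The median difference was 0.66 points over the 1026 tested members, with 54.8% above 0. Under the same limits it was -1.39 points under 500 nt and -0.16 at 500 to 2000 nt. It was 0.33 points over all 3684, which have no limit on the Control mean alone. Over all 1133 members it was -0.03 points, with 49.7% above 0. Over all 1255 tested long introns, with no limit on the Control mean alone, it was 1.71 points, with 62.9% above 0. The sign over the long introns thus varied with the limits applied. Control and DFMO libraries did not overlap for 131 tested members that were higher and 87 that were lower, or 21.2%. Under the same limits the share was 23.4% under 500 nt and 21.3% at 500 to 2000 nt. With no limit on the Control mean alone it was 25.6% of the 1255 tested long introns and 24.7% of all introns tested. Because the limit acts on the Control mean alone, introns near 5% enter when Control happens to be high. Conversely, the 229 tested long introns outside the limit had to differ upward for the most part, since their 6-library mean passed while their Control mean did not, and 99.6% were higher. Of these, 10 were called higher and 0 lower, with an adjusted p below 0.05 for 38 and an unadjusted p below 0.05 for 90.

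**Figure D2:**
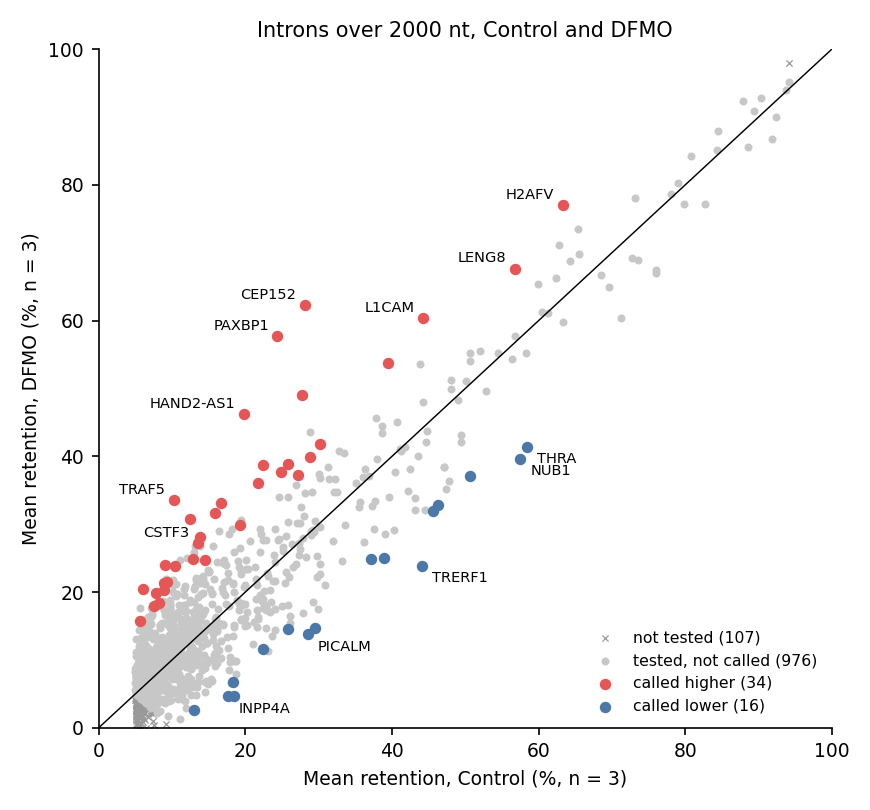
Mean retention in DFMO (%, y axis) against Control (%, x axis) for the 1133 long introns, each point 1 intron and n = 3 libraries per mean; the line marks equal values. The 34 introns called higher lie above the line and the 16 called lower below it, and most points sit at low percents near the line.

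Of the 50 called introns, 28 had reads at 1 border only. Upstream-only introns made up 9 of the 34 that rose and 9 of the 16 that fell, and downstream-only ones 7 and 3. Another 8 and 3 had reads at both borders, 6 and 1 mostly upstream, and 4 and 0 mostly downstream. All but 2 of the 18 upstream-only ones hold an annotated transcript end or another donor on the upstream side, with an end in 15. Of the 10 downstream-only ones, 7 hold an annotated start or another acceptor on the downstream side. Over all upstream-only members, 53.4% hold an annotated end and 20.9% another donor. Over all downstream-only members, 32.7% hold a start and 44.9% another acceptor. The difference between called introns and their class was not tested. The median size was 13.6 points. Errors below are SD with n = 3, and SE is that of the log2 odds difference. A first or last intron is so in at least 1 annotated transcript.

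The largest upstream-only rise was in HAND2-AS1, a noncoding gene divergent from the neural crest factor gene HAND2. Its 45734-nt intron was at 18.4%, 20.8% and 20.2% in Control and 48.2%, 42.1% and 48.4% in DFMO. All 3 DFMO libraries stood above all 3 Control libraries, a rise of 26.4 points (log2 odds 1.79, SE 0.16, adjusted p = 3.8e-25). Reads over the upstream border numbered 131, 125 and 158 in Control and 374, 295 and 326 in DFMO, while the downstream border had 0, 0 and 2, then 0, 1 and 0. Reads that join the exons were 290, 238 and 317, then 201, 204 and 174. Body reads were at most 1.2 in any library. Annotated HAND2-AS1 transcripts end inside this intron, one of them at the poly(A) signal printed above.

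A pair of genes for the machinery that cleaves pre-mRNA at poly(A) sites followed the same pattern. PCF11 encodes a subunit of cleavage factor II, and its first intron is known for a poly(A) site that gives a short transcript. Its 3695-nt intron was at 44.2%, 37.6% and 36.6% in Control and 58.1%, 54.5% and 48.8% in DFMO, with no overlap (14.3 points higher, log2 odds 0.83, SE 0.22, adjusted p = 0.00393). Upstream reads were 79, 75 and 95, then 172, 156 and 139, and downstream reads at most 8. CSTF3 encodes a subunit of the cleavage stimulation factor, and a short form that ends in an early intron is known for it too. Its 33248-nt intron was at 13.3%, 11.6% and 15.7% in Control and 36.6%, 18.6% and 26.3% in DFMO, with 0 downstream reads in any library. The groups did not overlap, but DFMO replicate 1 was highest (13.7 points, log2 odds 1.2, SE 0.31, adjusted p = 0.00383). Without DFMO replicate 1 neither call held, at 12.2 points for PCF11 and 8.95 for CSTF3.

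Further upstream-only rises were seen in TMTC4, CDON and KAT8. The 11104-nt intron of TMTC4, an O-mannosyltransferase of the endoplasmic reticulum, was at 30.5%, 31.0% and 21.6% in Control and 38.9%, 55.2% and 53.2% in DFMO (21.4 points, adjusted p = 0.000498). All its DFMO values were above Control, with DFMO replicate 1 nearest to it. CDON is a cell surface co-receptor of Hedgehog signalling, and its 4546-nt intron was at 8.65%, 9.01% and 8.98%, then 21.1%, 18.5% and 21.3% (11.4 points, adjusted p = 0.00153). The 2 groups were far apart beside their spread, and no downstream read was counted. KAT8, the acetyltransferase of histone H4, had 20%, 18.1% and 19.7%, then 31.7%, 27.4% and 30.7% at a 6520-nt intron (10.6 points, adjusted p = 0.000581). Without DFMO replicate 1 the KAT8 difference was 9.77 points and the call was lost. Body reads at KAT8 were 40.8, 37 and 51.6, then 79.3, 75.2 and 50.5, with DFMO replicate 3 inside the Control range.

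**Figure D3:**
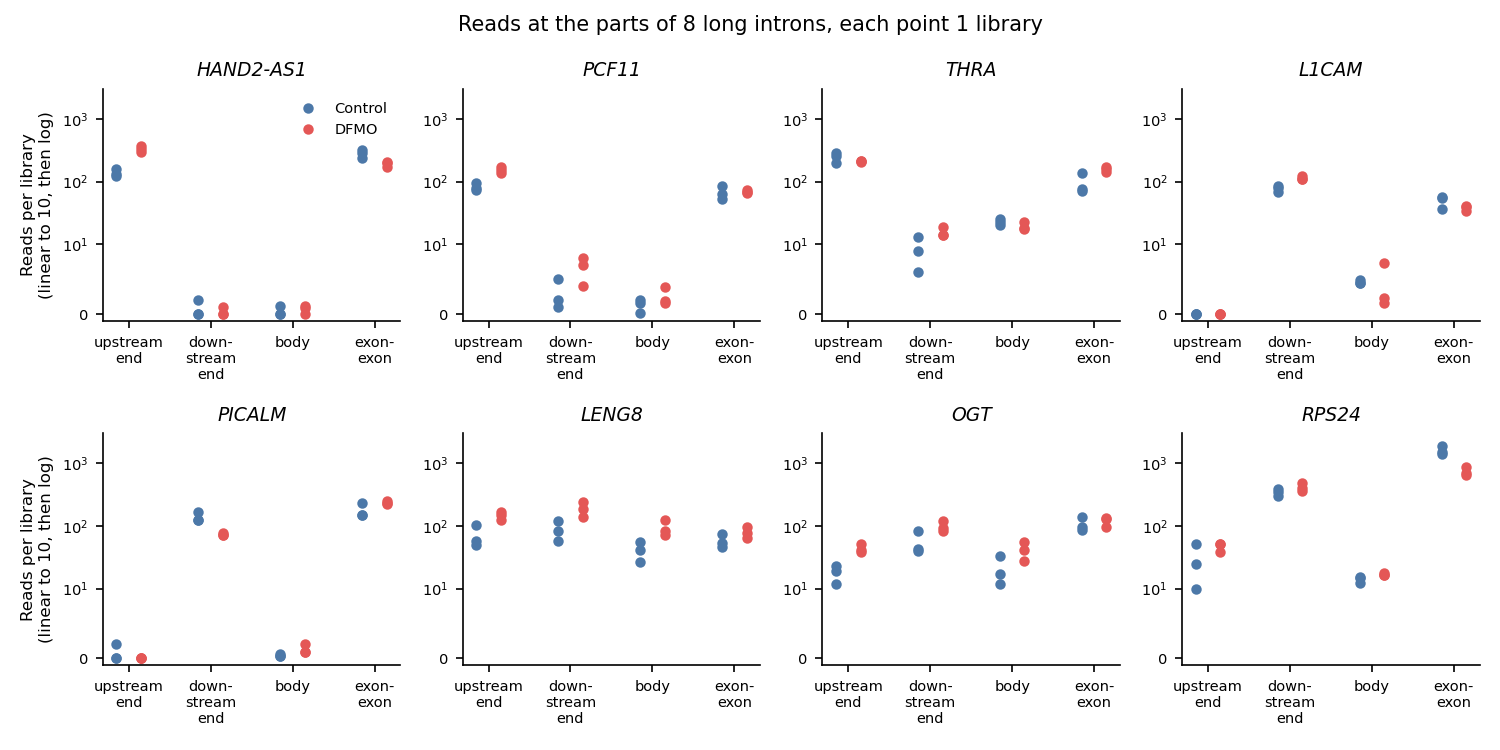
Reads per library (y axis, linear to 10 and logarithmic above) over the upstream border, the downstream border, the intron body and the exon-exon junction of 8 called introns; each point is 1 library. HAND2-AS1, PCF11 and THRA have their border reads upstream, L1CAM and PICALM downstream, LENG8 and OGT at both borders, and RPS24 mainly downstream.

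Among upstream-only introns that fell, THRA encodes a thyroid hormone receptor. Transcripts that end inside this intron encode the hormone-binding form TRα1, and splicing it out gives TRα2, which does not bind the hormone. The 3686-nt intron was at 65.0%, 58.2% and 52.0% in Control and 41.0%, 44.3% and 39.1% in DFMO. All Control libraries were above all DFMO libraries, and the percent fell by 16.9 points (log2 odds -0.99, SE 0.16, adjusted p = 1.84e-07). Reads over the upstream border were 261, 201 and 286, then 211, 217 and 204, while reads that join the exons were 72, 77 and 136, then 162, 145 and 174. More exon-exon reads went with the lower percent. The junction-read proxy of THRA (defined below) was higher with DFMO (log2 0.35, adjusted p = 0.00011). An exon of the opposite strand lies at the downstream border of this intron, where 6 to 19 reads per library were counted.

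The largest fall was in TRERF1, a zinc finger transcription factor gene. Its 3596-nt intron was at 44.6%, 48.3% and 39.3% in Control and 23.7%, 25% and 23.1% in DFMO (difference -20.2 points, adjusted p = 0.00489), with no overlap. NUB1 encodes a protein that lowers NEDD8 conjugates, and its 6691-nt first intron was at 61.9%, 54.1% and 56.4%, then 40.4%, 39.0% and 39.5% (difference -17.8 points, adjusted p = 8e-05). The 3 DFMO values lay close together and below every Control value. ATRX, a chromatin remodeler that places histone H3.3, had an 11447-nt intron at 19.1%, 16.4% and 19.3%, then 7.2%, 6.74% and 6.31% (difference -11.5 points, adjusted p = 0.00318). No downstream read was counted in ATRX, and its upstream reads were 32, 22 and 34, then 18, 12 and 14. PPP4R3A, a regulatory subunit of protein phosphatase 4, was at 33.7%, 38.4% and 39.3%, then 28.8%, 24.8% and 20.8% at a 2479-nt intron (difference -12.3 points, adjusted p = 0.00249). Here too the groups did not overlap.

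Downstream-only introns also moved in both directions. L1CAM encodes an adhesion molecule of growing axons, and its 10120-nt first intron lies in the 5′ UTR and holds annotated transcript starts. It was at 47.9%, 41.1% and 43.9% in Control and 60.2%, 59.0% and 62.0% in DFMO, a rise of 16.1 points (log2 odds 0.94, SE 0.24, adjusted p = 0.00393). The groups did not overlap, and the upstream border had 0 reads in every library, against 68, 78 and 86, then 124, 112 and 111 downstream. SLC3A2, the heavy chain of amino acid transporters, also holds annotated starts in its 9349-nt intron, which was at 30.4%, 28.8% and 27.3%, then 38.1%, 39.1% and 42.6% (11.1 points, adjusted p = 0.00208). All its DFMO libraries were above Control. Downstream reads were 133, 118 and 162 in Control and 238, 185 and 193 in DFMO, with 1 upstream read in all, and without DFMO replicate 3 the difference was 9.79 points and the call was lost. EML6, a microtubule-associated protein gene, had 15.9%, 10.9% and 10.6%, then 35.6%, 26.9% and 29.8% at a 2266-nt intron (18.3 points, adjusted p = 0.00121). No annotated exon on its strand runs 10 nt or more across a border of the EML6 intron. Exons wholly inside that intron were not examined.

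Histone and ribosomal protein genes were part of this class. The last intron of H2AFV, which encodes a histone H2A.Z variant, is 5365 nt long and was at 64.5%, 60.5% and 65.0%, then 71.7%, 80.5% and 78.8% (13.7 points, adjusted p = 0.000447). Its body held 128.9, 130.3 and 171.3 reads in Control and 173.8, 131.4 and 140.7 in DFMO, the most of any called intron, beside 1 to 7 upstream reads. Downstream reads of H2AFV were 182, 155 and 210 in Control and 196, 178 and 198 in DFMO, which overlap. Exon-exon reads were 52, 51 and 58, then 39, 22 and 27, so the higher percent went mainly with fewer exon-exon reads. RPS24 encodes a protein of the small ribosomal subunit, and its last, 3310-nt intron had 343, 300 and 389 downstream reads in Control and 479, 361 and 401 in DFMO. Exon-exon reads were 1526, 1415 and 1873, then 883, 638 and 699, so both read numbers moved toward a higher percent. The percents were 10.8%, 9.87% and 10.5%, then 23.1%, 23.9% and 24.5% (log2 odds 1.43, SE 0.11, adjusted p = 1.2e-32), and the groups stood far apart beside their spread. Ribosomal protein genes have processed copies in the genome that share exon-exon sequence, so the exon-exon reads of RPS24 are uncertain. The junction-read proxy of RPS24 (defined below) was higher with DFMO by limma (log2 0.32, adjusted p = 2.35e-05), while the exon-exon reads at this intron were fewer. The reason for this difference was not tested.

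PICALM and UBTF fell from the downstream border. PICALM, a clathrin assembly protein gene, had 29.3%, 29.7% and 26.6% in Control and 14.6%, 14% and 12.8% in DFMO at its 6447-nt first intron, in which other acceptors are annotated. The groups did not overlap (difference -14.7 points, log2 odds -1.31, SE 0.21, adjusted p = 1.72e-07). Downstream reads were 123, 125 and 166, then 78, 73 and 73, and exon-exon reads 148, 150 and 229, then 228, 225 and 248. UBTF, the activator of ribosomal RNA transcription, had 25.3%, 34.9% and 28.3%, then 14.1%, 12% and 18.1% at a 2443-nt intron of its 5′ UTR (adjusted p = 0.0082). All UBTF libraries with DFMO were below Control, with 0 upstream reads in any library. Without Control replicate 2 the UBTF difference was -12 points and the call was lost.

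Introns with reads at both borders included the largest rise. CEP152 builds the scaffold for new centrioles. Its last, 2312-nt intron was at 34.9%, 20.1% and 29.3% in Control and 52.9%, 52.9% and 81.1% in DFMO, a rise of 34.2 points (log2 odds 2.14, SE 0.4, adjusted p = 1.39e-05). DFMO replicate 3 was highest, at 4 exon-exon reads against 16 to 31 in the other libraries, so the depth behind CEP152 was low. TRAF5, an adaptor of TNF receptors, was at 10.8%, 6.45% and 13.4%, then 32.0%, 45.5% and 23.3% at a 3983-nt intron (23.4 points, adjusted p = 9.36e-06). The DFMO libraries of TRAF5 were all above Control and had the larger spread, 11.16 (SD) against 3.51.

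PAXBP1, a nuclear protein gene, had a pair of neighbouring introns that rose, separated by a single exon. The 4011-nt one was at 20.9%, 25.7% and 26.5% in Control and 57.0%, 66.1% and 50% in DFMO (33.3 points, adjusted p = 4.58e-06). The 3726-nt one was at 18.1%, 20% and 28.9%, then 44.0%, 40.1% and 32.0% (16.3 points, adjusted p = 0.00274). No library overlapped between the groups in either intron. Without DFMO replicate 1 the second gave 13.7 points and its call was lost. These were the only called long introns that shared a gene. A further PAXBP1 intron, of 507 nt and thus no member, was called as well: it was at 16.43%, 22.32% and 18.84% in Control and 33.66%, 38.84% and 34.45% in DFMO, without overlap (16.5 points, adjusted p = 8.24e-04).

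SRSF11, PRPF38B and SPAG9 also rose. SRSF11, an arginine-serine rich splicing protein, was at 5.6%, 4.05% and 8.69% in Control and 22.7%, 26.7% and 11.7% in DFMO at a 3712-nt intron (14.3 points, log2 odds 1.92, SE 0.34, adjusted p = 2.56e-06). Its DFMO replicate 3 lay nearest to Control without overlap, and reads over the upstream border ran from 9 to 31 in Control against 33 to 61 in DFMO. PRPF38B, a protein of the spliceosome, was at 10.2%, 7.65% and 9.97%, then 19.1%, 24.5% and 20.9% at a 2266-nt intron (adjusted p = 2.16e-05). SPAG9, a scaffold of JNK signalling, was at 8.92%, 4.95% and 9.4%, then 21.9%, 23.1% and 14.5% at its last, 2160-nt intron (12.1 points, adjusted p = 0.000209). In both the DFMO libraries were all above Control.

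LENG8 and OGT are annotated with transcripts in which the whole intron is kept. LENG8 was at 54.8%, 55.6% and 59.9% in Control and 67.5%, 72.4% and 63.2% in DFMO at its 2244-nt intron (10.9 points, adjusted p = 0.00705). Its body reads were 40.6, 26.2 and 55.6, then 123.8, 83 and 71.7, above Control in each DFMO library. OGT adds O-GlcNAc to proteins, and its retained intron is known to respond to O-GlcNAc levels. It is 3271 nt long and was at 22.1%, 25.3% and 27.3%, then 38.1%, 43.2% and 32.0% (12.9 points, adjusted p = 0.00365). It held 11.8, 17.4 and 33.4 body reads in Control and 55.2, 41.3 and 28.1 in DFMO, which overlap, while the percents did not. Without Control replicate 1 or DFMO replicate 2 the LENG8 difference was 9.93 and 8.55 points and the call was lost, and without DFMO replicate 2 that of OGT was 10.1 points and lost.

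**Figure D4:**
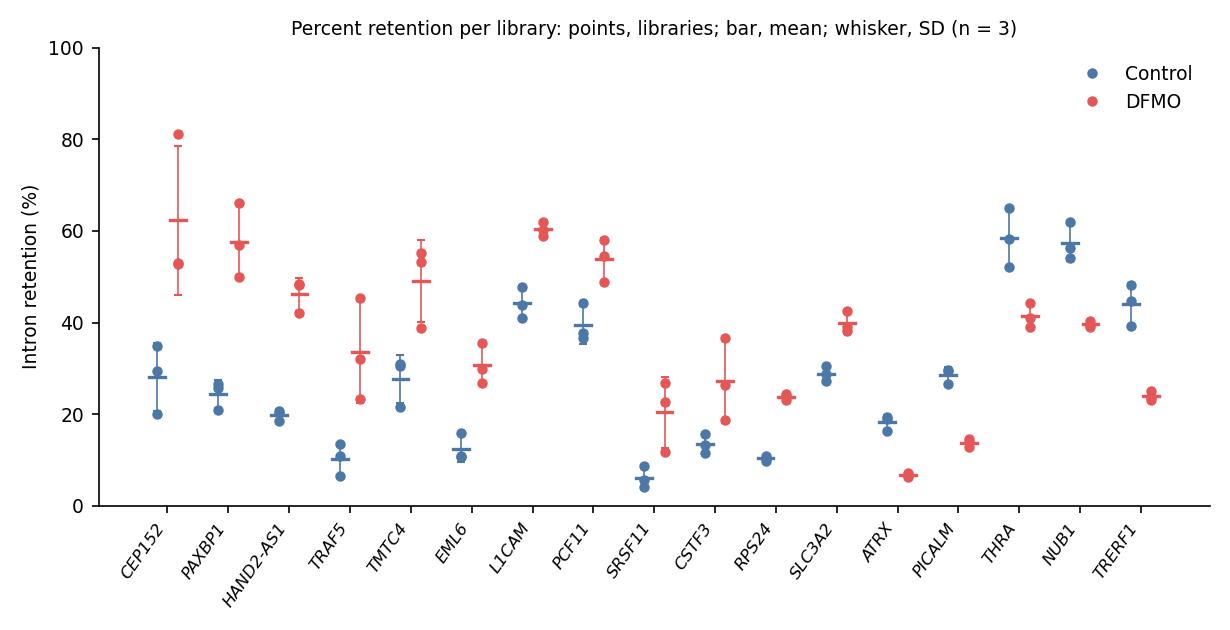
Retention per library (%, y axis) of 17 called introns, by gene (x axis), with Control in blue and DFMO in red; points are libraries, bars means and whiskers SD (n = 3). The 2 groups do not overlap in any of them, and CEP152, TRAF5, SRSF11 and CSTF3 have the widest spread with DFMO for their level.

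The remaining called introns were smaller or less stable. Rises by 14.3 to 16.5 points were called in THEM4 (16.7% ± 1.91 to 33.2% ± 5.11), TTC32 (15.9% ± 3.63 to 31.6% ± 2.67), TARBP1, a tRNA methyltransferase gene (9.01% ± 2.8 to 24.0% ± 10.9), TMEM68 (13.8% ± 3.77 to 28.1% ± 1.61) and the noncoding LINC01169 (21.7% ± 7.22 to 36.0% ± 6.19). Rises by 10.1 to 13.1 points were called in EPS15L1, SOS1, ACYP1, NBPF15, SLC25A36, FAM219A, EML5, EWSR1 and C16orf72. SOS1 activates RAS, and its 3326-nt intron went from 8.88% ± 0.44 to 21.4% ± 6.78 (adjusted p = 0.00635). EWSR1, an RNA-binding protein gene, went from 14.6% ± 5.41 to 24.7% ± 1.64 (adjusted p = 0.0145), and SLC25A36, a mitochondrial nucleotide carrier gene, from 7.55% ± 1.72 to 18% ± 1.07 (adjusted p = 0.0367). NBPF15 belongs to a family of near-identical copies, so its reads are uncertain.

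Falls in the rest ran from -10.4 to -13.9 points. They were called in TCEA2, an elongation factor gene (39.0% ± 7.13 to 25.1% ± 1.84), SPG11 (18.5% ± 6.06 to 4.65% ± 1.4), FAM58A (45.6% ± 12.8 to 32.0% ± 1.02) and CAMK2D, a calcium-calmodulin kinase gene (50.7% ± 7.6 to 37.2% ± 2.87). They were also called in SLC38A10, INPP4A, SCLY, the G protein gene GNAO1 (22.4% ± 3.37 to 11.6% ± 2.45) and COMMD6 (13% ± 10.1 to 2.65% ± 0.58). The libraries of COMMD6 overlapped, with Control replicate 3 at 2.59% against 2.04% to 3.2% with DFMO, and so did those of SLC38A10 and EPS15L1. An exon of the opposite strand lies at the upstream border of the SLC38A10 intron. In SPG11 the Control percents rested on 4 to 14 upstream reads per library.

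Which library was left out decided many of these smaller calls. Of the 50, 19 were called whichever single library was left out. Without Control replicate 1, 19 calls were lost: THEM4 (16 points), TARBP1 (13.6), TMEM68 (12.3), EPS15L1 (7.88), ACYP1 (12.2), NBPF15 (8.1), LENG8 (9.93), SLC25A36 (11.3), FAM219A (8.61), EWSR1 (9.8), C16orf72 (8.94), COMMD6 (-5.51), GNAO1 (-11.2), SCLY (-9.83), INPP4A (-11.3), SLC38A10 (-13.4), FAM58A (-6.4), SPG11 (-10.9) and TCEA2 (-11.7). Without Control replicate 2, 14 calls were lost: THEM4 (16 points), TTC32 (13.6), LINC01169 (10.9), SLC25A36 (9.59), FAM219A (10.5), EML5 (10), EWSR1 (7.68), C16orf72 (9.33), GNAO1 (-8.87), SCLY (-9.91), SLC38A10 (-10.2), CAMK2D (-9.11), TCEA2 (-11.9) and UBTF (-12). Without Control replicate 3, 6 calls were lost: THEM4 (17.6 points), LINC01169 (14), ACYP1 (10.6), SLC25A36 (10.4), EML5 (9.75) and SPG11 (-13.7). Without DFMO replicate 1, 18 calls were lost: PAXBP1 (13.7 points), TTC32 (14.6), TARBP1 (8.77), PCF11 (12.2), LINC01169 (15.9), CSTF3 (8.95), EPS15L1 (11.6), SOS1 (10.7), ACYP1 (7.37), KAT8 (9.77), SLC25A36 (11), FAM219A (11.2), EWSR1 (9.57), C16orf72 (9.97), COMMD6 (-10.1), INPP4A (-11.5), SPG11 (-13.2) and TCEA2 (-14.1). Without DFMO replicate 2, 14 calls were lost: THEM4 (15 points), LINC01169 (10.8), OGT (10.1), SOS1 (10.4), LENG8 (8.55), SLC25A36 (10.3), FAM219A (10.5), EML5 (9.07), EWSR1 (9.87), C16orf72 (8.28), COMMD6 (-10.7), GNAO1 (-9.85), SCLY (-10.8) and SLC38A10 (-12.5). Without DFMO replicate 3, 11 calls were lost: THEM4 (15.1 points), EPS15L1 (10.5), SLC3A2 (9.79), SLC25A36 (9.95), FAM219A (9.02), COMMD6 (-10.4), GNAO1 (-10.2), SCLY (-9.49), SLC38A10 (-10.3), CAMK2D (-12) and TCEA2 (-12.9). The SLC25A36 call was lost without any 1 of the 6. With no filter on the mean percent, 16 calls were lost, those of THEM4, TARBP1, LINC01169, EPS15L1, ACYP1, LENG8, SLC25A36, FAM219A, EWSR1, GNAO1, SCLY, SLC38A10, CAMK2D, FAM58A, SPG11 and TCEA2. On the percent scale 6 were lost, those of THEM4, EPS15L1, FAM219A, COMMD6, FAM58A and SPG11. Without the variance trend on the counting error, limma called none of the 50, with 144 long introns at an unadjusted p below 0.05 and a smallest adjusted p of 0.0798. By a quasi-binomial test 35 long introns rose and 17 fell.

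Reads at each part of the intron were then set against exon-exon reads on their own, as log2 of reads plus 0.5. As designed, limma with a mean-variance trend found no long intron at an adjusted p below 0.05 for either border or the body, against 0.0%, 0.0% and 0.218% of all introns. At an unadjusted p below 0.05 there were 128 for the upstream border, 99 for the downstream one and 162 for the body. With the variance trend used for the percents, which was added after these results were known, 27 long introns were higher and 15 lower at the upstream border. The downstream border had 4 and 2 and the body 27 and 4, where 3.61%, 1.17% and 3.83% of all introns passed. The 3 ratios share the exon-exon reads, and both borders make up the percent. The body reads do not enter the percent, but their ratio moves with the same exon-exon reads, so a like sign is in part built in.

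In the body, the long introns had a median log2 ratio difference of 0.26, with 64.8% above 0, against 0.1 and 55.9% over all introns. Of the 34 that rose, the body ratio was also higher in 31, and of the 16 that fell it was lower in 8. Only 33 of the 50 had at least 10 body reads in all, of which the ratio moved with the percent in 28 and passed in 12 by the setting chosen later. KAT8 (log2 0.96, adjusted p = 0.0118), C16orf72 (0.94, adjusted p = 0.00689), SRSF11 (1.55, adjusted p = 0.0134) and RPS24 (1.39, adjusted p = 0.00343) were among these, as was THRA (-1.05, adjusted p = 0.0255). In RPS24, body reads summed to 42.4 in Control and 51.2 in DFMO, while exon-exon reads went from 4814 to 2220. Body reads were at most 1.2 per library in HAND2-AS1, 3.9 in PCF11 and 3.6 in ATRX, and their body ratios did not pass (adjusted p = 0.355, 0.49 and 0.913). Over all 1133 introns, 589 had under 10 body reads summed over the libraries and 113 had 0.

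Lists of genes by function gave few calls each. The lists were chosen with earlier results of these data known, and a list's count is set beside the 34 higher and 16 lower of 1026 tested. Genes for RNA decay and 3′ end processing had 2 called higher and 0 lower of 12 (PCF11 and CSTF3; median 1.98 points, 9 of 12 above 0). Signalling kinases, GTPases and adaptors had 2 higher and 0 lower of 10 (TRAF5 and SOS1; median 0.03 points). Core spliceosome genes had 1 of 6 higher (PRPF38B; median -1.53), SR proteins and their kinases 1 of 8 (SRSF11; median 3.13), and hnRNPs and other splicing regulators 1 of 12 (EWSR1; median 1.17). Noradrenergic identity genes had 1 of 9 higher (HAND2-AS1; median 4.17 points), and small RNA hosts and other noncoding genes 1 of 8, again HAND2-AS1.

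Chromatin modifiers split, with KAT8 higher and ATRX lower of 19, as did axon, synapse and ion channel genes, with L1CAM higher and CAMK2D lower of 22. Cell cycle and centrosome genes had 1 of 24 higher (CEP152; median 2.26 points), mitochondrial proteins 1 of 10 (SLC25A36; median -1.14), and polyamine and methionine metabolism 1 of 3 (SLC3A2; median 1.95). The single cytosolic ribosomal protein intron was that of RPS24. No intron was called among 20 of DNA repair and replication genes, 23 of ubiquitin and proteasome genes, 22 of membrane traffic and lysosome genes or 5 of translation factors and tRNA enzymes. In those lists limma gave an adjusted p below 0.05 to 1, 0, 0 and 0 introns. With no size limit, core spliceosome and mitochondrial genes each also had 1 lower intron at that adjusted p. SR proteins and their kinases, noradrenergic identity genes and small RNA hosts each had 2 higher.

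The level of the host gene was read from a proxy, the mean over its covered exon events of log2 of 1 plus event reads, per 1000000 event reads. Of 49 host genes of called introns, 47 had a proxy. It passed at an adjusted p below 0.05 in 26, of which 17 were higher and 9 lower, from -0.26 to 0.58 on the log2 scale. Over all exon events with no coverage filter it passed in 0 of 49, with 19 at an unadjusted p below 0.05. In the covered events, 45.5% of 9232 genes passed, and over 1001 host genes of the long introns 45.3%. LENG8 (log2 0.58), TCEA2 (0.47), OGT (0.42), TTC32 (0.38) and THRA (0.35) had the highest values, and CSTF3 (-0.26, adjusted p = 0.000527) the lowest. PCF11 (0.16), HAND2-AS1 (0.21), L1CAM (0.19) and ATRX (0.26) were higher with DFMO too. Among the genes just named, intron percent and proxy went the same way in LENG8, OGT, TTC32, PCF11, HAND2-AS1 and L1CAM. They went opposite ways in TCEA2, CSTF3, THRA and ATRX. The proxy cannot tell fewer cells that make an RNA from less RNA per cell, and it also moves with exon inclusion.

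Among the genes examined, other introns mostly differed by little. In PCF11, the 14 other covered introns had a median difference of 0 points and a range of -1.26 to 2.14, and in THRA the 8 others ranged from -0.13 to 0.04. In CSTF3 the 19 others ranged from -0.12 to 1.94, in L1CAM the 27 others from -0.55 to 0.28, in PICALM the 18 others from -0.09 to 1.08 and in ATRX the 33 others from -2.04 to 0.33. CEP152 had 25 others from -0.81 to 1.45. These others were near the floor in Control, with median percents of 0.27 in PCF11, 0.03 in THRA and 0.1 in L1CAM. The median was 0.0 in CSTF3, PICALM, ATRX and CEP152. At that level hardly any fall can show, so the values do not tell whether the falls in THRA, PICALM and ATRX were particular to the called intron. A rise in points could show, and in PCF11, CSTF3, L1CAM and CEP152 no other covered intron rose by more than 2.14 points. An equal change in odds would be small in points from that level, so these values do not tell whether the odds changed in the called intron alone. Exceptions included PAXBP1, with the 507-nt intron given above, and CDON, with another intron 13.45 points higher. The only other intron was 9.95 points higher in ACYP1 and 6.31 points higher in HAND2-AS1. Those of CDON, ACYP1 and HAND2-AS1 were not called. KAT8 had another intron at -6.87 points, TRERF1 at -8.78, SLC38A10 at -7.46 and GNAO1 at -5.58, while TMEM68 had another at 5.81. These were not called either.

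Of the 1042 host genes, 960 had 1 long intron in the set, 75 had 2, 6 had 3 and DPY19L2 had 5. In PRIMPOL, a primase and polymerase that restarts DNA synthesis, all 3 were higher with DFMO, by 7.55 to 9.94 points, with adjusted p-values of 0.111, 0.228 and 0.123 that missed the limit. In NUP98, a nuclear pore gene, all 3 were lower, by -0.163 to -4.96 points. The 3 introns of MEG3 differed by -1.93 to 0.863 points and the 5 of DPY19L2 by -2.48 to 5.47, none of them called. DPY19L2 has near-identical copies elsewhere in the genome, so its reads are uncertain. In TRERF1, 1 of 3 was called, and the largest difference in the other direction was 0.86 points. TCTN1 and TMEM161B also held 3 each, of which 1 was higher in each gene and none was called. Their differences ran from -3.85 to 1.7 points in TCTN1 and from -4.07 to 6.06 in TMEM161B. PRIMPOL, NUP98, MEG3, DPY19L2, TCTN1 and TMEM161B are named here because they hold 3 or more of the introns, and were chosen after their values had been seen.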

How the data were processed

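The authors deposited 1 table of splicing events for 3 Control and 3 DFMO libraries of SKNBE2 cells, with a percent per event and library as its unit. Beside it stood a quality text with coverage scores and read numbers, which were parsed for each intron. Per the labels' protocols, stranded mRNA libraries were read as single reads of 100 nt, and the build was GRCh38, per the submitters' processing notes. Neither aligner nor quantifier is given in the sources used here. All columns with values per library were used.

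Introns with a score of LOW or better, 10 or more reads in each library and a 6-library mean of 5 to 95% were tested, 3684 in all. The log2 odds of the reads assigned to inclusion and exclusion, with 0.5 added to both, were the input to limma 3.58.1 under R 4.3.3 (robust empirical Bayes, variance trend on the expected counting variance, two-sided, Benjamini-Hochberg over all 3684). The prior degrees of freedom were infinite, so the spread of a single intron among its replicates weighed little. Without the trend they were 3.06. Reads at each border and in the body, and a junction-read proxy of gene level, were fitted with limma as well. Settings were varied in the offset, filters, scale, test, replicate block and libraries left out.

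Introns were matched to GENCODE release 29 by exact coordinates, and an exon counted as crossing a border when it ran at least 10 nt into the intron. Sequence came from its transcripts, so a border with no annotated exon across it has none printed, and none is printed for TMEM68.

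The members and gene lists were chosen with earlier results of these data known. Named introns were the 15 largest rises and falls among called introns whose groups did not overlap (1 per gene), up to 3 called per list, the 3 longest, the 3 highest in Control and those next to each limit. The other called introns are named too, after their values had been seen. Depth was 77648922 to 103250467 event reads per library, which count a read once per entry it touches, and border reads are few, so percents carry the counting error of those reads.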

Additional observations from a re-analysis of the deposited data

How the results depend on the processing

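The counts of long introns called, 34 higher and 16 lower, rest on the variance trend: without it limma called 0 and 0, with 144 long introns at an unadjusted p below 0.05. With balanced reads at both borders in every library, 6 and 1 were called, since most long introns leave that fit. With no filter on the mean percent 9 were lower, and with no size threshold 29 were lower. Leaving out 1 library at a time gave 21 to 35 higher, lowest without DFMO replicate 1, and 8 to 17 lower, lowest without Control replicate 1. The other settings kept both counts within 1.5 times, and no called intron changed sign. Among named introns that were not called, DLC1 (1.24 points), JRK, FBRSL1, MEG3, SUGP1, HS6ST3 and STX1A changed sign without 1 or other of the libraries, DLC1 to -1.81 without Control replicate 2 and -3.23 without DFMO replicate 3.

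Replicate numbers did not pair the samples: deviations of same-numbered libraries correlated at 0.0093, 0.0029 and -0.0341, within the -0.0341 to 0.0284 of all pairs across groups. With the replicate block, 33 were higher and 16 lower, and FAM219A lost its call.

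For reads at single parts of the intron, where the designed fit called 0 in each direction, the variance trend chosen after seeing the data gave 27 higher and 15 lower upstream, 4 and 2 downstream, and 27 and 4 in the body. A pseudocount of 1 gave 2 higher upstream, and 10 or more body reads gave 1 higher upstream. Leaving out 1 library gave 0 to 0 in each. Over all exon events with no coverage filter, 0 host genes passed the proxy test in place of 26; the cause was not tested. Of the 1133 introns, 589 had under 10 body reads.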
